A study of Rattus norvegicus with 71 samples.

Results

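In its usual form, with glutamate-binding subunits, the NMDA receptor is a cation channel that opens only when glutamate and a co-agonist, glycine or D-serine, are both bound. It is assembled around the obligatory subunit GluN1, encoded by Grin1, together with GluN2 subunits, which bind glutamate (Grin2a, Grin2b, Grin2c and Grin2d), or GluN3 subunits, which bind glycine (Grin3a and Grin3b). In the rodent forebrain GluN2B and GluN2D are known as the GluN2 subunits of early life, GluN2A rises after birth, GluN2C is best known from the cerebellum, GluN3A peaks in the early postnatal weeks, and GluN3B was first described in motor neurons. The 7 genes were taken by symbol from the 17494 genes of the count table, and all 7 reached 1 CPM (counts scaled to a common library total) in 8 or more of the 71 libraries, as did 12477 genes in all. Grin3b was chosen for its difference between exposed and control animals in these same data, so its levels by exposure are given as a description, with no test. The other 6 genes came with it as members of the family.

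Each library was made from polyadenylated RNA of 1 coronal brain slice of about 150 um, with hippocampus and the adjoining cortex and subcortical structures, of a wild-type Sprague-Dawley rat pup at postnatal day 2 (PND2). The study models maternal autoantibody-related autism (MARA): dams were immunized with peptides of fetal brain antigens in Freund's adjuvant, and control dams received adjuvant and saline, so adjuvant was common to all groups. There were 24 saline controls from 7 litters and 47 animals exposed to MARA autoantibodies (MARA-AB) from 20 litters, namely 8 of CRMP1+CRMP2 from 4 litters, 25 of LDHA/B+CRMP1+STIP1 from 9, 6 of CRMP1+GDA from 3 and 8 of STIP1+NSE from 4. The exposure was given to the dam, so littermates share it and are not independent. The paper's methods say that RNA came only from first litters. Its list of offspring instead places controls and LDHA/B+CRMP1+STIP1 animals in second litters, and the other patterns in first litters. If that list holds, litter order cannot be told apart from exposure for CRMP1+CRMP2, CRMP1+GDA and STIP1+NSE. All 28 animals of batch 1 were either saline controls (12) or of the LDHA/B+CRMP1+STIP1 pattern (16), and the other 43 were in batch 2, so the 3 remaining patterns have no animals in batch 1.

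Libraries held 24880182 to 36234952 counts (median 28439195). Markers of cortical and hippocampal excitatory neurons (6 of 6 listed) summed to a median of 1126 CPM in batch 1 and 814.7 CPM in batch 2, so markers of the labelled tissue were present in both. The slices differed between batches in the tissue they held. The summed level of the thalamus markers Tcf7l2, Lef1, Gbx2 and Slc17a6 (4 of the 5 listed are in the table) was 46.3 to 123.5 CPM in batch 1 (median 64.9) and 61.0 to 1022 CPM in batch 2 (median 693), and Gbx2 was at 0 in 1 library. In 5 exposed libraries of batch 2, from 4 litters, the sum was under 200 CPM: replicates 2 and 3 of CRMP1+CRMP2, replicate 2 of STIP1+NSE, and replicates 1 and 2 of LDHA/B+CRMP1+STIP1. The choroid plexus markers Ttr, Folr1, Kl and Clic6 summed to a median of 15.99 CPM in batch 1 and 1014 CPM in batch 2, and 5 batch 2 libraries had summed pineal markers over 30 CPM. In whole slices, fewer cells of a type and less RNA per cell cannot be told apart, which holds for every level below.

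Grin1 was by far the most abundant subunit gene at PND2. Levels of different genes were compared per exon length, as CPM per kilobase of exon (RPKM), with the SD over 71 animals. Grin1 stood at 66.7 ± 7.26 RPKM, which was 51.8% ± 4.50 of the summed RPKM of the 7 genes. The glycine-binding Grin3a came next at 22.97 ± 7.498 RPKM, followed by the GluN2 genes Grin2d at 19.7 ± 7.61 and Grin2b at 11.7 ± 2.86 RPKM. Grin3b, at 5.79 ± 1.43 RPKM, lay above Grin2a at 2.11 ± 0.553 and Grin2c at 0.976 ± 0.463 RPKM. The order of Grin1 over Grin3a, of Grin2b over Grin3b and of Grin3b over Grin2a was kept in 71 of 71 libraries, and that of Grin2a over Grin2c in 69. The middle of the order was less fixed. Grin3a was above Grin2d in 60 of 71 libraries, with a median ratio of 1.14, so this pair lay within the spread. Grin2d was above Grin2b in 40 of 43 libraries of batch 2 and in only 12 of 28 of batch 1, where the median ratio was 0.946. The 7 genes lie on 6 chromosomes of build rn7. Grin1 is at chr3:8103680-8130603 with 4343 exon bases, Grin3a at chr5:64009980-64206085 with 4386, Grin2d at chr1:96308365-96344793 with 5254 and Grin2b at chr4:168599546-169042279 with 5259. Grin2a, at chr10:5630684-6043341 with 4717 exon bases, is the only one on the plus strand, and Grin2c is at chr10:100488551-100506156 with 4388. The least abundant gene, Grin2c, rested on 34 to 392 counts per library and Grin3b on 312 to 966.

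**Figure D1:**
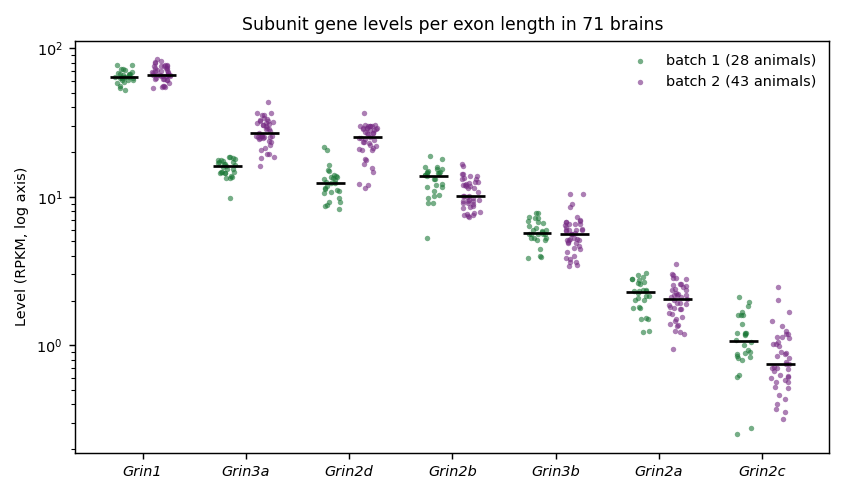
Levels of the 7 subunit genes (RPKM, log axis) with 1 point per animal, 28 of batch 1 in green and 43 of batch 2 in purple, and black lines at the medians. Grin1 lies highest and Grin2c lowest in both batches, while Grin2d and Grin3a sit higher in batch 2 (means 24.4 and 27.7 RPKM) than in batch 1 (12.6 and 15.8 RPKM).

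As shares of the summed subunit RPKM, Grin2d and Grin3a were larger in batch 2, and Grin1 and Grin2b smaller. Grin2d made up 10.8% ± 2.04 in 28 animals of batch 1 and 17.3% ± 2.80 in 43 of batch 2, and Grin3a 13.7% ± 1.252 and 19.7% ± 2.55. The share of Grin1 was 56.2% ± 2.54 and 48.9% ± 2.86, and that of Grin2b 11.4% ± 2.42 and 7.78% ± 1.87. Grin3b made up 5.12% ± 1.09 and 4.21% ± 1.40.

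To compare the batches without exposure, the 12 controls of batch 2 were set against the 12 of batch 1, with sex in the model. Grin2d and Grin3a, which encode the GluN2 and GluN3 subunits most typical of the immature brain, were higher in batch 2, and Grin2b and Grin2c were lower. Grin2d ranged from 45.9 to 113 CPM with a median of 62.2 in batch 1, and from 87.6 to 158 CPM with a median of 148 in batch 2. The ranges overlapped from 87.6 to 113 CPM. The log2 fold change was 1.00 (SE 0.12, adjusted p = 1.1e-06 by edgeR's quasi-likelihood F test, adjusted after Benjamini and Hochberg over 12477 genes). Grin3a ranged from 43.2 to 81.1 CPM (median 74.1) in batch 1 and from 81.6 to 161 CPM (median 130) in batch 2. These control ranges nearly met, and exposed animals of batch 2 went down to 70.3 CPM. The difference of Grin3a between control batches was 0.84 on the log2 scale (SE 0.10, adjusted p = 1.3e-06, edgeR). Grin2c, the subunit best known from cerebellum, fell by 0.83 on the log2 scale (SE 0.21, adjusted p = 0.0027), from a median of 5.71 CPM (2.78 to 9.25) to 3.27 CPM (1.40 to 5.22). Grin2b, the main GluN2 gene of the newborn forebrain in textbooks, fell by 0.39 (SE 0.13, adjusted p = 0.0185), from a median of 66.0 CPM (27.6 to 83.4) to 47.6 CPM (39.0 to 66.3). Grin1 (0.04, SE 0.06, adjusted p = 0.692), Grin2a (-0.13, SE 0.15, adjusted p = 0.532) and Grin3b (-0.22, SE 0.12, adjusted p = 0.179) did not pass by edgeR. Grin3b was chosen from a contrast that included these controls, so its batch values are not independent of that choice.

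These 4 of 7 subunit genes past FDR < 0.1 stand beside 41.5% of all 12477 genes in the same comparison, so calls among them were about as common as among genes in general. The 16 LDHA/B+CRMP1+STIP1 animals of batch 1 and the 9 of batch 2 gave a log2 fold change of 0.81 for Grin2d (adjusted p = 0.000164), 0.69 for Grin3a (adjusted p = 3.3e-07) and -0.29 for Grin2b (adjusted p = 0.0906), while Grin2c no longer passed at -0.47 (adjusted p = 0.162). Without control litter 9_5 of batch 2, Grin1 passed as higher (0.10, adjusted p = 0.0958, edgeR). Without control litter IgG2 of batch 1, Grin3b passed as lower in batch 2 (-0.34, adjusted p = 0.0449, edgeR). This Grin3b value again comes from controls used in choosing the gene and supports nothing about it. The batches were processed and sequenced separately and from other litters, so tissue content, litter and sequencing cannot be told apart in this contrast.

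**Figure D2:**
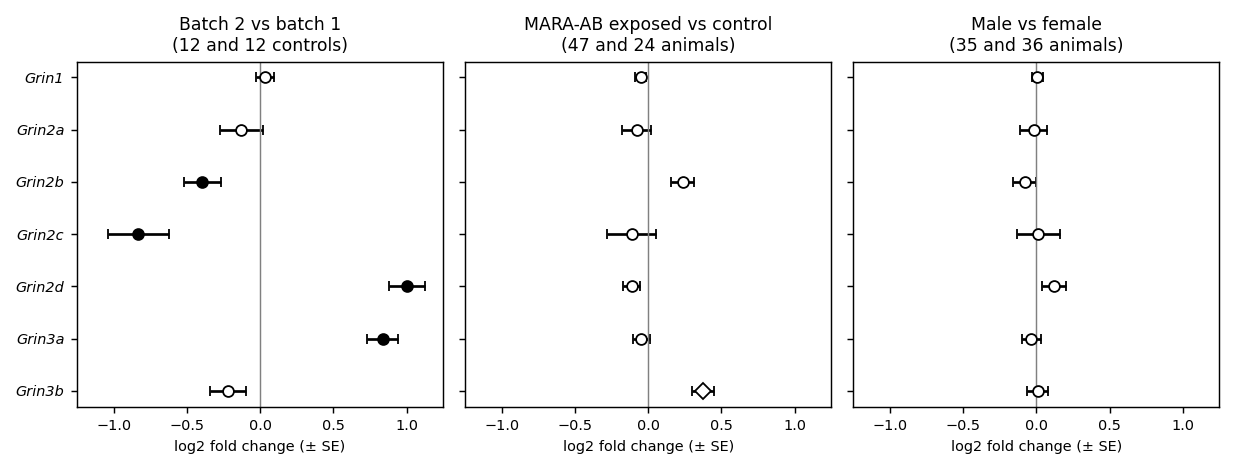
Log2 fold changes of the 7 subunit genes with their standard errors in 3 comparisons, batch 2 against batch 1 among 24 controls, 47 MARA-AB exposed animals against 24 controls, and 35 males against 36 females. Filled circles passed FDR < 0.1, open circles did not, and the open diamond is Grin3b, shown with no test because it was chosen from that contrast; the filled points are all in the batch panel.

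Because Grin2d and Grin3a moved together between the batches, their promoters are shown as they stand in RefSeq (rat build GRCr8, both on the minus strand), from 250 bases before to 50 after the start. Grin2d lies at chr1:105481187-105481486 and Grin3a at chr5:69001509-69001808. Capitals mark a match, on either strand, to the GC box GGGCGG, the cAMP response element TGACGTCA, the E-box of neurogenic bHLH factors CAGCTG, the canonical E-box CACGTG or the homeodomain core TAATTA.
Grin2d: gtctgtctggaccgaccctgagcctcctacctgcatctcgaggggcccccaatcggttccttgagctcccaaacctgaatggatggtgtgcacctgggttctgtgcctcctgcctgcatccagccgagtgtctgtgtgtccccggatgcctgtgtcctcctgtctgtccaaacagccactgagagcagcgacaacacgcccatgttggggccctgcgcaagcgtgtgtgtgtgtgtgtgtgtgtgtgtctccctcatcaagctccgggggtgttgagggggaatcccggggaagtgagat
Grin3a: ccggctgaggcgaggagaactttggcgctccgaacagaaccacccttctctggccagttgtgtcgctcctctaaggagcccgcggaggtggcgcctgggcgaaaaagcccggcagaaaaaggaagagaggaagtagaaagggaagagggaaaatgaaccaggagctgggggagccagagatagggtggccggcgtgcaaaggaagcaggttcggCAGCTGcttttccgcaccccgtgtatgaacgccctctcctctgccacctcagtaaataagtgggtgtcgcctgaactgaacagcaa
Among 27457 rat promoters of the same length, 34.9% held the GC box, 1.91% the cAMP response element, 15.1% the letters CAGCTG, 6.65% the canonical E-box and 5.35% the homeodomain core. The Grin3a window held 1 match, CAGCTG, and the Grin2d window held 0. The windows of Grin1 and Grin2c, the other 2 subunit genes matched in the RefSeq table, held 1 (a GC box) and 0. The 4 windows had a GC content of 58.7% to 60.7%, against a median of 52.3% over all promoters. These matches are letters only and say nothing of whether a factor is bound.

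Within a batch, Grin2d and Grin3a followed the thalamus content of the slice. The relation was computed over litter means of the log2 level and the log2 thalamus marker sum, for 7 genes in 2 batches, which makes 14 relations. For Grin2d, Pearson's r was 0.89 over 7 litters of batch 1 (exact permutation p = 0.00238, adjusted 0.0111; Spearman's rho 0.93, adjusted p = 0.0315). Over 20 litters of batch 2, r was 0.89 (permutation p = 2e-05, the smallest that 100000 resamples give, adjusted 0.00028) and rho was 0.83 (adjusted p = 0.00028). For Grin3a, r was 0.71 (permutation p = 0.0001, adjusted 0.0007) and rho 0.79 in batch 2, while in batch 1 r was 0.84 with an adjusted exact permutation p of 0.0708. Without the 2 litters farthest from the median thalamus sum, r was 0.85 and 0.83 for Grin2d in batches 1 and 2, and 0.39 and 0.68 for Grin3a, so the batch 1 relation of Grin3a rested on 2 litters. Grin1, Grin2a, Grin2b and Grin2c did not pass in either batch. For Grin3b, r was -0.13 in batch 1 and -0.35 in batch 2. These values are a description with no test, because the gene was chosen by exposure and the litters mix exposed and control. Exposed and control litters were pooled in each batch for these relations, and tissue depth and position in the slice were not tested.

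**Figure D3:**
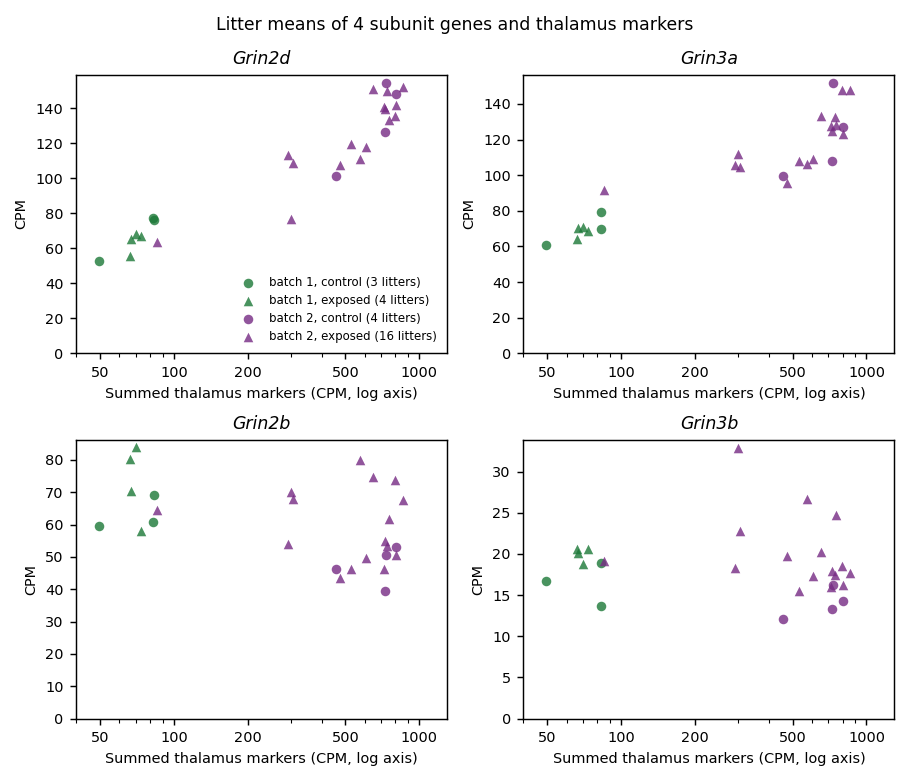
Litter means of Grin2d, Grin3a, Grin2b and Grin3b (CPM) against the summed thalamus markers (CPM, log axis), with 7 litters of batch 1 in green and 20 of batch 2 in purple, circles for control and triangles for exposed litters. Grin2d and Grin3a rise with the thalamus sum in batch 2 (r 0.89 and 0.71), and the Grin2b and Grin3b points show no such rise.

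The same genes were compared between littermates, which share dam and exposure. In 26 litters with more than 1 animal, the littermate with the most thalamus marker RNA had more Grin2d than the one with the least in 24 litters and more Grin3a in 22. The counts were 16 for Grin1, 16 for Grin2a, 11 for Grin2b and 11 for Grin2c. For Grin3b the count was 5 of 26, made up of 2 of 7 litters in batch 1 and 3 of 19 in batch 2. In most litters, then, the animal with the least thalamus marker RNA had more Grin3b than the one with the most. Some littermates were nearly equal in thalamus sum, as in control litter 9_15 of batch 2, at 724 and 726 CPM. These counts were made after the values were seen and carry no test. The widest pair was litter 9_1 of CRMP1+CRMP2, with thalamus sums of 61.0 and 552 CPM. Grin2d was at 59.7 CPM in the first animal and 157 CPM in the second, Grin3a at 84.9 and 125 CPM, and Grin3b at 26.8 and 18.9 CPM.

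The study's main question was whether MARA-AB exposure changed gene expression, and 47 exposed animals were compared with 24 controls, with the first surrogate variable as covariate. This variable had an absolute correlation of 0.94 with the log2 thalamus sum over 71 animals. The median of that sum was 64.9 CPM in batch 1 and 693 CPM in batch 2. The correlation was not computed within a batch, so thalamus content and batch cannot be told apart in it. None of the 6 subunit genes other than Grin3b passed FDR < 0.1, where 0.0321% of 12477 genes did. At an unadjusted p under 0.05 there were 2 of 6, Grin2b and Grin2d, against 10.3% of all genes, and DESeq2 and a model with litter as a random effect also put 0 of 6 past FDR < 0.1.

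Grin2b had the largest difference of the 6, with a log2 fold change of 0.24 (SE 0.08, unadjusted p = 0.0031 and adjusted p = 0.293, edgeR). In batch 1 it ranged from 27.6 to 83.4 CPM in 12 controls (median 66.0) and from 47.6 to 98.3 CPM in 16 exposed animals (median 76.1). In batch 2 it ranged from 39.0 to 66.3 CPM in 12 controls (median 47.6) and from 38.2 to 87.2 CPM in 31 exposed animals (median 60.6). The groups overlapped in both batches, though 10 of 31 exposed animals of batch 2 and 3 of 16 of batch 1 lay above every control of their batch. By litter, 11 of 16 exposed litter means of batch 2 were above all 4 control litters, and 3 of 4 in batch 1 above all 3. The remaining batch 1 litter, FcRn4, lay below all 3 control litters, at 57.98 CPM against 59.48 for the lowest of them. With batch 2 alone the log2 fold change was 0.28 (SE 0.10, adjusted p = 0.745). Grin2d differed by -0.11 (SE 0.06, unadjusted p = 0.046, adjusted p = 0.478, edgeR). Its range in batch 2 was 87.6 to 158 CPM in controls (median 148) and 59.7 to 194 CPM in exposed animals (median 128), and 5 of the 31 exposed animals lay below every control, 4 above and 22 within the control range. Without the 5 thalamus-poor libraries the value was -0.08, with adjusted p = 0.666.

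The obligatory Grin1 differed by -0.05 (SE 0.04, adjusted p = 0.658), Grin2a by -0.08 (SE 0.10, adjusted p = 0.812), Grin2c by -0.11 (SE 0.17, adjusted p = 0.847) and Grin3a by -0.05 (SE 0.06, adjusted p = 0.804). Grin1 was the most evenly expressed, at 234 to 345 CPM in controls and 227 to 365 CPM in exposed animals. The standard error of Grin1 was 0.06 with counts summed per litter and 0.05 with litter as a random effect, both of which allow for the shared dam. The wide standard error of Grin2c, with few counts, leaves room for a sizeable change. In batch 1, 3 of 16 exposed animals lay below every control for Grin2c, 0 above and 13 within the control range. In batch 2, 7 of 31 lay above every control, 0 below and 24 within the control range.

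**Figure D4:**
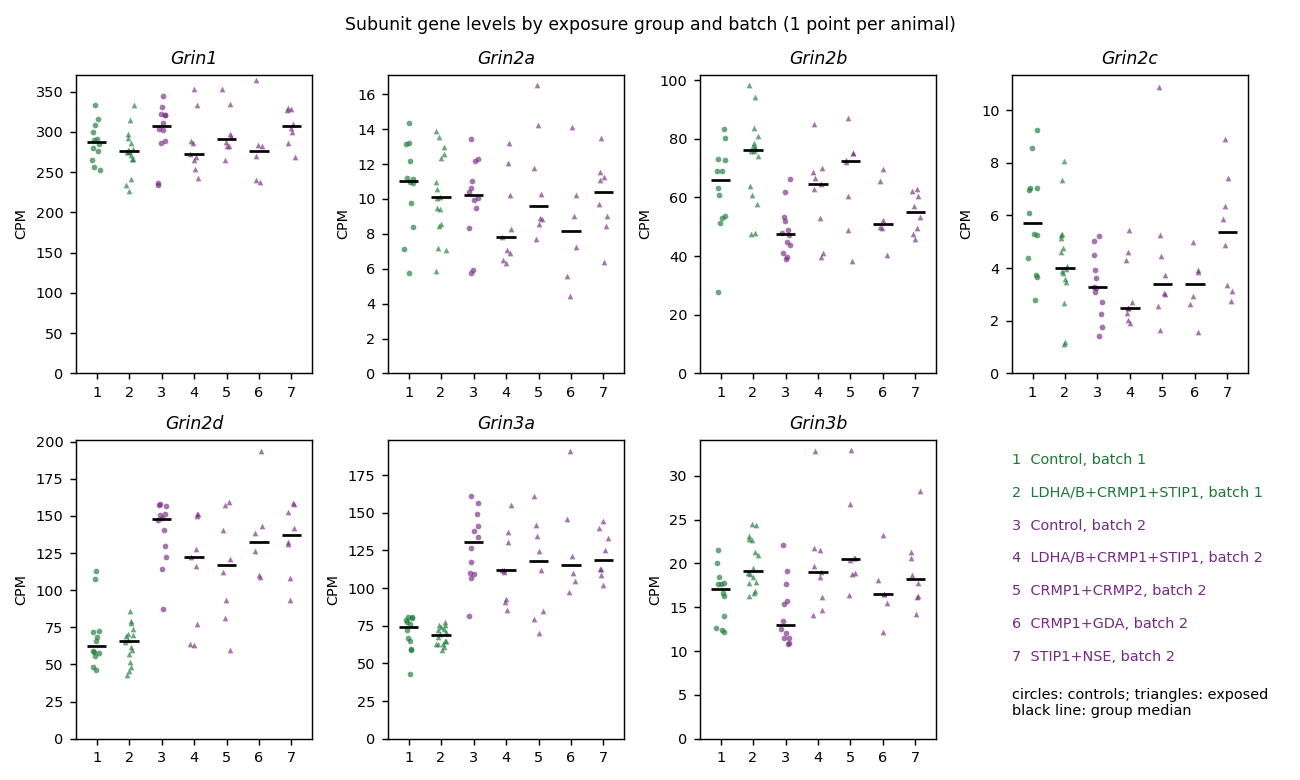
CPM of each subunit gene by exposure group and batch with 1 point per animal, circles for controls, triangles for exposed animals, green for batch 1, purple for batch 2 and black lines at the medians. Grin2d and Grin3a lie higher in batch 2 than in batch 1, and the Grin3b medians of the exposed groups lie above that of the controls of their batch (17.1 CPM in batch 1 and 13.0 CPM in batch 2).

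Grin3b, the member chosen for its exposure contrast, is described here by group and litter, and nothing is read from the direction. In batch 1 it ranged from 12.2 to 21.6 CPM in controls (median 17.1) and from 16.3 to 24.5 CPM in LDHA/B+CRMP1+STIP1 animals (median 19.2). In batch 2 controls ranged from 10.8 to 22.1 CPM (median 13.0). In the exposed groups of batch 2 the range was 16.5 to 32.995 CPM for CRMP1+CRMP2 (median 20.5), 14.1 to 32.8 CPM for LDHA/B+CRMP1+STIP1 (median 18.97), 12.1 to 23.2 CPM for CRMP1+GDA (median 16.5) and 14.3 to 28.3 CPM for STIP1+NSE (median 18.3). The groups overlapped throughout. Of 47 exposed animals, 10 lay above every control of their batch, 37 within the control range and 0 below it, and 43 lay above the control median. By litter, 13 of 16 exposed litters of batch 2 and 3 of 4 of batch 1 had a mean above every control litter of the batch.

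The fitted log2 fold change of Grin3b was 0.57 (SE 0.12) for CRMP1+CRMP2, 0.44 (SE 0.13) for STIP1+NSE, 0.34 (SE 0.08) for LDHA/B+CRMP1+STIP1 and 0.30 (SE 0.14) for CRMP1+GDA, all against the same 24 controls. For LDHA/B+CRMP1+STIP1 it was 0.28 (SE 0.09) in batch 1 alone and 0.45 (SE 0.15) in batch 2 alone. Of the 24 controls, 12 were of batch 1, where no other pattern had animals. Leaving out the thalamus-poor libraries gave 0.42 (SE 0.13) for CRMP1+CRMP2 and, over all patterns, 0.34 (SE 0.07). With the log2 thalamus sum as an added covariate the value over all patterns was 0.36 (SE 0.08). That sum was closely correlated with the surrogate variable already in the fit. All these values come from the contrast that chose the gene and support nothing about it. The highest single values, 32.995 CPM in replicate 3 of CRMP1+CRMP2 and 32.8 CPM in replicate 9 of LDHA/B+CRMP1+STIP1, came from libraries with thalamus sums of 194.5 and 300.04 CPM. GluN3B was first described in motor neurons. The summed markers of motor neurons and brainstem (7 of 8 listed genes in the table) ranged from 5.66 to 27.6 CPM in batch 2 controls and from 6.46 to 46.3 CPM in exposed animals of batch 2, with overlapping ranges. By gene, the choline transporter gene Slc5a7 had a median of 13.1 CPM, Isl1 6.85 CPM and Chat 0.844 CPM over 71 libraries, while Mnx1 was at 0 in 64 libraries, Hoxc8 in 70, Hoxb7 in 61 and Hoxb8 in 57. The part of thalamus content and of other cell types in the Grin3b values was not tested beyond these fits.

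Grin3b also shares sequence with a neighbour. In build rn7 it lies on the minus strand of chromosome 7 from 9730861 to 9737176, with 9 exons and 3163 exon bases, and its last exon overlaps the last exon of Tmem259, on the plus strand, by 72 bases. Tmem259, which encodes a membrane protein of the endoplasmic reticulum, was at 140 ± 11.3 CPM over 71 animals, far above Grin3b at 18.3 ± 4.52 CPM. Whether the counting used strand is not given in the sources used here, so reads in the shared bases cannot be told apart. The values of the genes differed. Between exposed and control animals Tmem259 differed by -0.03 (SE 0.03, adjusted p = 0.732), and Pearson's r between the genes across 71 animals, with group and batch means removed, was 0.19. The ratio of Grin3b to Tmem259 CPM was 0.120 ± 0.0207 in 12 controls and 0.148 ± 0.0201 in 16 exposed animals of batch 1, and 0.0988 ± 0.0235 in 12 controls of batch 2 against 0.157 ± 0.0346 in 8 CRMP1+CRMP2 animals. The other batch 2 patterns were at 0.120 ± 0.0266 (CRMP1+GDA, n = 6), 0.137 ± 0.0330 (STIP1+NSE, n = 8) and 0.140 ± 0.0445 (LDHA/B+CRMP1+STIP1, n = 9). These ratios rest on the contrast that chose Grin3b. Wdr18, 3069 bases upstream of Grin3b and involved in ribosome assembly, differed by -0.05 (SE 0.04, adjusted p = 0.708) over all patterns, but in the CRMP1+CRMP2 fit it fell by 0.20 (SE 0.06, adjusted p = 0.0574). Grin1 shares 8 exonic bases with Lrrc26, which was at 0.503 CPM, and the other subunit genes share 0 exonic bases with a neighbour.

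**Figure D5:**
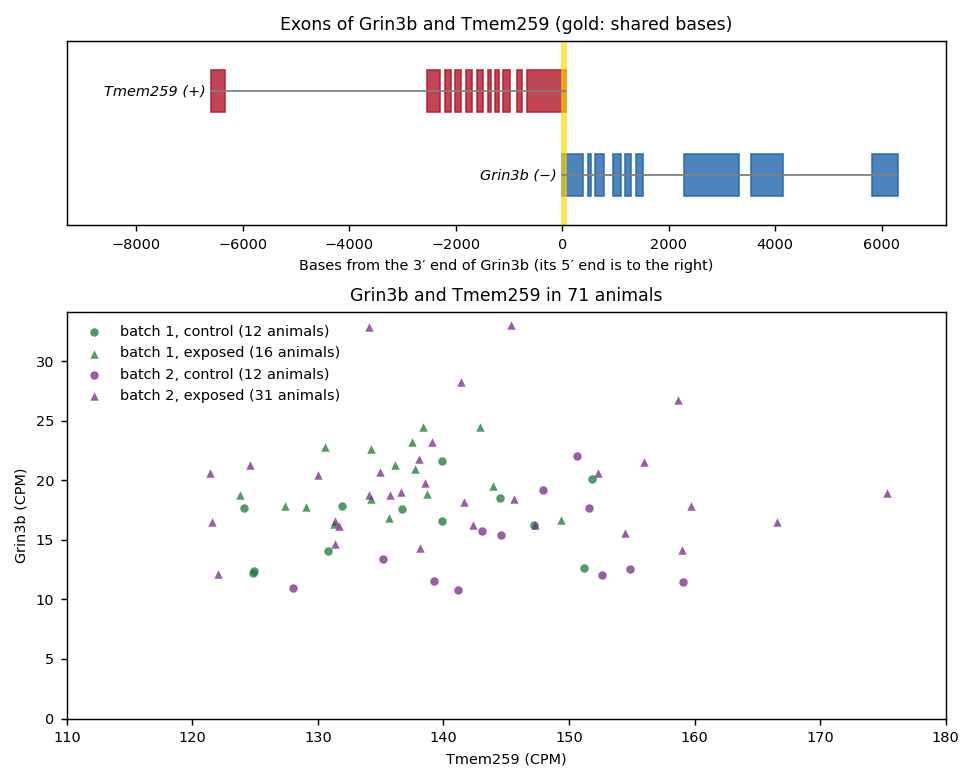
Top, the exons of Tmem259 (plus strand) and Grin3b (minus strand) in bases from the end of Grin3b, with the 72 shared bases in gold. Bottom, CPM of Grin3b against Tmem259 in 71 animals, green for batch 1, purple for batch 2, circles for controls and triangles for exposed animals; the points form no line (r 0.19 with group means removed), and the Tmem259 axis does not start at 0.

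Each pattern was next set against all 24 controls, to ask which subunit genes moved with a given set of antibodies. In the main fits, 0 of the 6 genes other than Grin3b passed FDR < 0.1 in any of the 4 patterns. Of the controls, 12 were of batch 1, where CRMP1+CRMP2, CRMP1+GDA and STIP1+NSE have no animals. These fits held the surrogate variable and no batch term. Against batch 2 controls alone, 0 of the 6 passed for CRMP1+CRMP2 (127 of 12605 genes did), CRMP1+GDA (1 of 12538) and STIP1+NSE (0 of 12562). For CRMP1+CRMP2, 11.4% of 12691 genes passed. Grin2b came nearest (log2 fold change 0.35, SE 0.14, adjusted p = 0.119), followed by Grin2d (-0.19, SE 0.08, adjusted p = 0.142), and 2 of 6 had an unadjusted p under 0.05 against 24.4% of all genes. The call on Grin2b turned on settings. DESeq2 gave an adjusted p of 0.082, the fit without litter 9_16 gave 0.51 with an adjusted p of 0.013, and the fit without the 2 thalamus-poor libraries of the pattern gave 0.31 with an adjusted p of 0.444. Litter 9_16 held the lowest values of the pattern, 38.2 and 48.9 CPM, while the other 6 animals were at 60.6 to 87.2 CPM. Without the thalamus-poor libraries only 5 genes of the whole table passed for CRMP1+CRMP2, in place of 1445.

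For LDHA/B+CRMP1+STIP1, where 0.0157% of 12700 genes passed, Grin2b differed by 0.23 (SE 0.09, adjusted p = 0.534) and was the 1 of 6 with an unadjusted p under 0.05 (7.17% of all genes). Grin2b was at 0.22 (SE 0.13) in batch 1 alone and 0.31 (SE 0.12) in batch 2 alone. For STIP1+NSE, where 0.0474% of 12660 genes passed, Grin2c differed by 0.56 (SE 0.25, unadjusted p = 0.033, adjusted p = 1.00), the 1 of 6 under 0.05 (3.19% of all genes). It ranged from 2.75 to 8.91 CPM in these 8 animals (median 5.38) and from 1.40 to 5.22 CPM in batch 2 controls (median 3.27), so the groups overlapped. For CRMP1+GDA, with 6 animals, 0% of 12641 genes passed and 0 of 6 subunit genes had an unadjusted p under 0.05 (3.65% of all genes), and the estimates ranged from -0.20 for Grin2a (SE 0.21) to 0.19 for Grin2b (SE 0.16). DESeq2 put 0 of 6 past the threshold in these 3 patterns. The 4 patterns share their controls, so the positive Grin2b values of 0.18 (SE 0.13, STIP1+NSE) to 0.35 are not independent of each other. An interaction of batch with LDHA/B+CRMP1+STIP1 exposure called 0 of the 6 genes (0.11% of all genes), and 0 of 6 had an unadjusted p under 0.05 (3.05% of all genes), with estimates of -0.19 (SE 0.20) for Grin2d to 0.36 (SE 0.33) for Grin2c.

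The balance between subunits was tested over litters, as the dam received the exposure. A ratio within a library needs no scaling. The log2 ratio of Grin2a to Grin2b, which rises as the forebrain matures, was 0.31 lower in 20 exposed than in 7 control litters after comparison within batches (coded as exposed minus control, -0.31; exact permutation test over 169575 arrangements, two-sided, p = 0.0344, adjusted over 3 ratios 0.0516). The log2 ratio of Grin2d to Grin2b differed by -0.42 (exact permutation p = 0.0302, adjusted 0.0516). Neither passed 0.05 after adjustment. Both ratios have Grin2b as denominator, so they are not independent of each other. Grin2d followed the thalamus content, and the 5 batch 2 libraries with a thalamus sum under 200 CPM were all exposed. The part of thalamus content in these ratios was not tested. The ratio of Grin3a to Grin1 differed by -0.02 (exact permutation p = 0.833). In batch 2 alone the first 2 ratios differed by -0.31 and -0.47 with adjusted exact permutation p of 0.159 each.

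Males and females did not differ in any subunit gene past the threshold. With 35 males and 36 females and the means of group and batch in the model, 0 of 7 genes passed FDR < 0.1 by edgeR or DESeq2 and 0 had an unadjusted p under 0.05, against 0.0641% and 4.66% of 12477 genes. The largest value was 0.12 for Grin2d (SE 0.08, adjusted p = 0.991), which ranged from 43.2 to 159 CPM in males (median 113) and from 45.4 to 194 CPM in females (median 90.4). Grin3b differed by 0.01 (SE 0.07), with 10.8 to 32.995 CPM in males (median 17.9) and 10.965 to 32.8 CPM in females (median 17.9). The interaction of sex and exposure called 0 of 7 subunit genes and 0% of 12477 genes, with 0 of 7 under an unadjusted p of 0.05 (3.54% of all genes). Its estimates ran from -0.16 for Grin3a (SE 0.13) to 0.18 for Grin2b (SE 0.16).

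By their share of variance, littermates resembled each other most in Grin1 and least in Grin3b. With group and batch means removed, the share of variance between litters was 0.437 for Grin1 and 0.182 for Grin3b, with 0.2101 to 0.314 for the other 5 genes. The SD within litters on the log2 scale was 0.12 for Grin1, 0.27 for Grin3b and 0.51 for Grin2c, the gene with the fewest counts.

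Between animals of the same group and batch, the subunit genes formed no single block. These animals differed in slice content and depth, and slice content was not removed. Pearson's r of log2 CPM over 71 animals, with group and batch means removed, was 0.71 between Grin1 and Grin2a. It was 0.65 between Grin2d and Grin3a, 0.61 between Grin2a and Grin3a and 0.60 between Grin1 and Grin2d. Grin2b was near 0 with Grin2d (-0.06) and at 0.49 with Grin2a. The r of Grin3b with the other members ran from -0.29 (Grin2d) to 0.22 (Grin2b), and that of Grin2c from -0.19 (Grin2b) to 0.18 (Grin2d).

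The genes most like each member were then listed on the same measure. For Grin1 they included Camta2 (r 0.86), a calmodulin-binding transcription activator. For Grin2d they were Slc12a5 (0.93), the neuronal chloride exporter KCC2, and Kcnh2 (0.89), a voltage-gated potassium channel. Grin3a was most like Igfbp5 (0.85) and Sema5a (0.82), Grin2b like the kinesin gene Kif21b (0.84) and the ubiquitin ligase gene Mib1 (0.84), and Grin2a like Slc24a2 (0.82) and Stxbp5 (0.81). The likeness was weaker for the scarce Grin2c, with Mitf (0.64) and Plekhb1 (0.62). For Grin3b the 5 most alike were Gpc2 (0.66), Zswim4 (0.64), Bmi1 (0.63), Igsf9 (0.63) and Stx16 (0.63). Gpc2 encodes a glypican of developing neurons and Bmi1 a Polycomb protein of dividing progenitors. These are descriptions over animals, and of the 5 named for Grin3b only 2 were among its 5 by rank correlation.

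The genes around the receptor were counted in lists of scaffolds and anchors, kinases and phosphatases, co-agonist supply, glutamate uptake and release, trafficking and transcription, and calcium effectors, 86 genes of which 84 were tested. These lists were chosen with earlier results of these data known, so counts from them are a description only. In exposed against control animals 1 of 84 passed, where 0.0321% of all genes did. It was Creb1, a transcription factor activated by calcium entry (log2 fold change 0.28, SE 0.06, adjusted p = 0.0999, edgeR). The median over the lists was -0.01 against 0.0029 over all genes. With litter as a random effect, and with counts summed per litter, 0 of 12477 genes passed, so this call was lost. Creb1 also passed for LDHA/B+CRMP1+STIP1 (0.28, SE 0.05, adjusted p = 0.0156, edgeR), where it was 1 of 85 and 0.0157% of all genes passed. It passed for CRMP1+CRMP2 as well (0.36, SE 0.09, adjusted p = 0.0232, edgeR), where 11.4% of all genes did. For LDHA/B+CRMP1+STIP1, 0 of 12700 genes passed with litter as a random effect. In batch 2 alone Creb1 was at 0.25 (SE 0.10, adjusted p = 0.872, edgeR) for this pattern. In batch 1 alone 1 of 85 list genes passed as higher by edgeR, where 2 of 12415 genes did. The gene belonged to trafficking and transcription, the list that holds Creb1. For CRMP1+CRMP2 in batch 2 alone Creb1 was at 0.39 (SE 0.12, adjusted p = 0.113, edgeR). In all, 0 of 84 passed for CRMP1+GDA, for STIP1+NSE and between sexes, where 0%, 0.0474% and 0.0641% of all genes did. An unadjusted p under 0.05 was found for 7 of 84 (3.65% of all genes), 3 (3.19%) and 8 (4.66%).

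For CRMP1+CRMP2, 5 of 84 were higher and 17 lower, where 4.83% of all genes were higher and 6.56% lower. These calls count littermates as independent. With litter as a random effect 33 genes of the whole table passed, 9 higher and 24 lower, in place of 1445, and without litter 9_6 there were 41. Without litter 9_11 the number was 799 and without litter 9_16 it was 2889. In the fit as reported 3 of 13 scaffolds and anchors were lower and 1 higher, 5 of 19 kinases and phosphatases lower and 0 higher, 3 of 10 calcium effectors lower and 2 higher, 4 of 19 trafficking and transcription genes lower and 2 higher, 1 of 15 co-agonist supply genes lower and 0 higher, and 1 of 8 uptake and release genes lower and 0 higher. The 3 smallest p belonged to Calm3, one of the calmodulin genes (-0.27, SE 0.05, adjusted p = 0.0017), Lin7b, an adaptor of receptor trafficking (-0.46, SE 0.09, adjusted p = 0.0064), and the postsynaptic scaffold gene Dlgap3 (-0.31, SE 0.07, adjusted p = 0.0138). With batch 2 alone 0 were higher and 3 lower, where 1.01% of all genes passed (0.397% higher and 0.611% lower), so most of these calls were lost. Between batches in controls, 15 of 84 were higher and 31 lower in batch 2 (21.4% and 20.1% of all genes). Among scaffolds and anchors 2 of 13 were higher and 9 lower, and among co-agonist supply 5 of 15 were higher and 5 lower. The vesicular glutamate transporter gene Slc17a6, itself a thalamus marker, was 2.09 higher (SE 0.16, adjusted p = 7.1e-10), the tyrosine kinase gene Ptk2b 0.92 lower (-0.92, SE 0.09, adjusted p = 8.8e-09) and the anchor gene Actn2 1.14 lower (-1.14, SE 0.11, adjusted p = 1.3e-08).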

How the data were processed

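The authors aligned paired reads to rat build rn7 with STAR 2.5.4b and counted them per gene with featureCounts. The deposited table holds whole-number counts with no normalization and, for each gene, its exon bases. Strand use and multiple mapping are not given in the sources used here. Of counts from 1 to 9, 74.5% were even, and halved counts were tried. Groups, litters and sexes were read from the labels, batch from the series of titles. All columns had a sample, with 0 left over.

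CPM and RPKM were computed from total counts. Tests used edgeR 4.0.16 (TMM, robust quasi-likelihood) in R 4.3.3 over all genes that reached 1 CPM in 8 or more samples (patterns: over 1 CPM in 2 or more), with 1 surrogate variable (sva 3.50.0) for exposure, at FDR < 0.1. Standard errors are the log2 fold change divided by the root of F. DESeq2 1.42.0 and limma 3.58.1 (litter as random effect, voom) were alternatives. Permutation tests used scipy. Fits and tests were tried on simulated data with batch differences. Those data held no litter effects and no spread in slice content, so the trial does not cover either.

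The named genes are the 7 members, genes within 5000 bases, the 5 most like Grin3b and 2 most like each other member, and up to 3 list genes with the smallest p among those past FDR < 0.1 per comparison; 1 gene the rule names is not reported here. The members, lists and rules were chosen with earlier results of these data known. Each library is 1 animal. Littermates share a dam, so p-values over animals do not cover the spread between dams. No library was left out of the reported fits. At these depths 1 CPM is about 25 to 36 counts, which limits Grin2c most.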

Additional observations from a re-analysis of the deposited data

How the results depend on the processing

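The alternatives were other scaling (median-ratio), DESeq2, no expression filter, principal components, batch and sex as covariates, counts summed per litter, litter as random effect or fixed block, halved counts, batches alone and each litter left out, and, chosen after seeing the data, fits without thalamus-poor or pineal libraries and with thalamus markers as covariate, and the interactions of exposure with sex and batch. No paired analysis was possible because replicate numbers follow accession order and, for exposure, each litter holds only 1 group. For sex, litter was fitted as a fixed block, and 0 of 7 subunit genes passed. The count of subunit genes past FDR < 0.1 changed in the CRMP1+CRMP2 comparison, from 0 to 1 with DESeq2 (Grin2b, likewise 0 to 1 over litters left out), and the cause was not tested. Some differences changed sign, none of them past the threshold in the fit as reported or after the change. Most of the changed values were near 0, but those of Grin2c reached 0.27 and -0.285. In exposed against control animals, Grin2c was at 0.0088 with counts summed per litter and 0.27 in batch 2 alone. For CRMP1+CRMP2 without pineal libraries, Grin1 was at 0.0167 and Grin2c at -0.285. For CRMP1+GDA, Grin3a was at 0.0288 in batch 2 alone, 0.013 with litter as random effect and 0.0089 without pineal libraries. For STIP1+NSE, Grin3a was at 0.013 with litter as random effect. Between sexes, Grin3a was at 0.0583 in controls alone and Grin3b at -0.0203 with litter as a fixed block. Between batches, Grin1 was at -0.0136 with counts summed per litter. With 1 litter left out, the log2 fold change ran from -0.19 to 0.0641 (Grin2c) and -0.0768 to 0.0044 (Grin3a) over all patterns, from -0.0484 to 0.0020 (Grin1), -0.0234 to 0.14 (Grin2a), -0.25 to 0.40 (Grin2c) and -0.20 to 0.0058 (Grin3a) for CRMP1+CRMP2, from -0.20 to 0.0088 (Grin1), -0.39 to 0.0587 (Grin2c), -0.20 to 0.0286 (Grin2d) and -0.15 to 0.11 (Grin3a) for CRMP1+GDA, from -0.0102 to 0.0805 (Grin1) and -0.0895 to 0.0034 (Grin3a) for STIP1+NSE, and from -0.0557 to 0.10 (Grin1) between batches. The genes most like a member depended on the measure: with group means kept, 1 of the 5 for Grin3b and 0 of the 5 for Grin3a were the same genes.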
